A study of Homo sapiens with 4 samples.

Results

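Aminoacyl-tRNA synthetases are the enzymes that join each amino acid to its transfer RNA, and their transcripts are described here in HCT116, an established cell line from a human colorectal carcinoma, treated with HJ-23. The set was a fixed list of 39 gene symbols: 23 cytosolic genes, made up of 20 synthetases and the 3 scaffold genes AIMP1, AIMP2 and EEF1E1, and 16 nuclear genes for mitochondrial synthetases. A gene was kept where it had at least 10 counts in at least 2 libraries. All 39 were listed once and passed this rule, out of 20263 genes listed and 14122 that passed it. The treated cells received 30 µM HJ-23, a compound the submitters call a piperine derivative without giving its structure, for 24 h. The control cells received 0.1% DMSO for 24 h, and the genotype of both groups is given as WT. Total RNA was sequenced from 2 HJ-23 libraries and 2 DMSO libraries. The treatment label of the treated libraries reads HJ-25, while their titles and the design text read HJ-23, and the name in the titles is used here. Nothing in the labels says that the 2 libraries of a group were separate cultures, and p-values therefore rest on a spread between libraries that may be technical only.

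In human cells the cytosolic synthetases charge the tRNAs used by ribosomes in the cytoplasm, and a separate set, encoded in the nucleus and imported, charges the tRNAs encoded by mitochondrial DNA. GARS1 and KARS1 each encode both the cytosolic and the mitochondrial form. Several cytosolic synthetases sit together in a multi-synthetase complex held by the scaffold proteins AIMP1, AIMP2 and EEF1E1, while the others work outside it. Uncharged tRNA activates the kinase GCN2, encoded by EIF2AK4, which leads to translation of the transcription factor ATF4. Many cytosolic synthetase genes are known ATF4 targets.

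The libraries held 34406649 and 34831207 counts in HJ-23, against 31120459 and 29769568 in DMSO. Levels are given in CPM, which are counts scaled to a common library size, here with factors from the trimmed mean of M values, and fold changes are HJ-23 over DMSO. Of 14062 genes tested across the whole table with edgeR's quasi-likelihood test, 12 passed a Benjamini-Hochberg adjusted p below 0.05. The epithelial markers EPCAM, KRT8, KRT18, KRT19 and CDH1 were present in every library, VIL1 had at most 4 counts in either group, and PTPRC, CD3E, COL1A2 and DCN had 0 counts. Of the markers of other cell types, COL1A1 (55 and 60 CPM in HJ-23, against 63.3 and 61.1 CPM in DMSO) and CD68 (41.3 and 51 CPM in HJ-23, against 40.4 and 34.8 CPM in DMSO) were the most abundant. The libraries of each group also differed along an axis tied to the base composition of transcripts. Across 12898 genes with a mean of at least 1 CPM, the difference of HJ-23 replicate 2 from replicate 1 had a Spearman correlation with GC content of 0.676, and that of DMSO replicate 2 from replicate 1 had one of -0.381. Genes are not independent replicates, and these correlations are descriptions. Among the 39 members the same values were 0.689 and -0.543, so GC-rich members tended to be higher in HJ-23 replicate 2 and lower in DMSO replicate 2 than in the other library of the group. In bulk RNA, a difference in the number of cells of a kind and a difference in RNA per cell cannot be told apart.

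Most cytosolic genes had a higher mean level in HJ-23 cells, and the mitochondrial genes were divided more evenly. The difference between the class medians depended on single libraries, and the contrast was not tested. In the cytosolic class, 18 of 23 genes had a positive log2 fold change, with a median of 0.25, and in the mitochondrial class 10 of 16 did, with a median of 0.02. Without HJ-23 replicate 1 the medians were 0.14 for the cytosolic class and 0.11 for the mitochondrial class. Over all genes tested the median was 0.01, and 51% were positive. Levels were higher in both HJ-23 libraries than in either DMSO library in 12 of 23 cytosolic genes and 5 of 16 mitochondrial genes, against 24.8% of all genes tested. They were lower in both HJ-23 libraries than in either DMSO library in 0 cytosolic and 3 mitochondrial genes, against 21.2% of all genes tested. The mitochondrial share of 31.2% above was thus near that of all genes, and the cytosolic share of 52.2% was higher.

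No member passed the threshold after adjustment over all genes: edgeR called 0 of 39, against 0.0853% of all genes tested, made up of 0.0569% called higher and 0.0284% called lower. A fold change of at least 1.5 upwards was seen in 7 members, 6 of them cytosolic, against 6.14% of all genes tested, and one of at least 1.5 downwards in 0, against 6.13%. At an unadjusted edgeR p below 0.05, 7 cytosolic genes and 1 mitochondrial gene were higher in HJ-23 and none of the 39 was lower, against 6.77% of all genes tested higher and 5.25% lower. DESeq2, run as an alternative, called AARS1, MARS1 and YARS1 higher and no member lower, against 1.19% of its genes called higher and 1.11% lower.

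**Figure D1:**
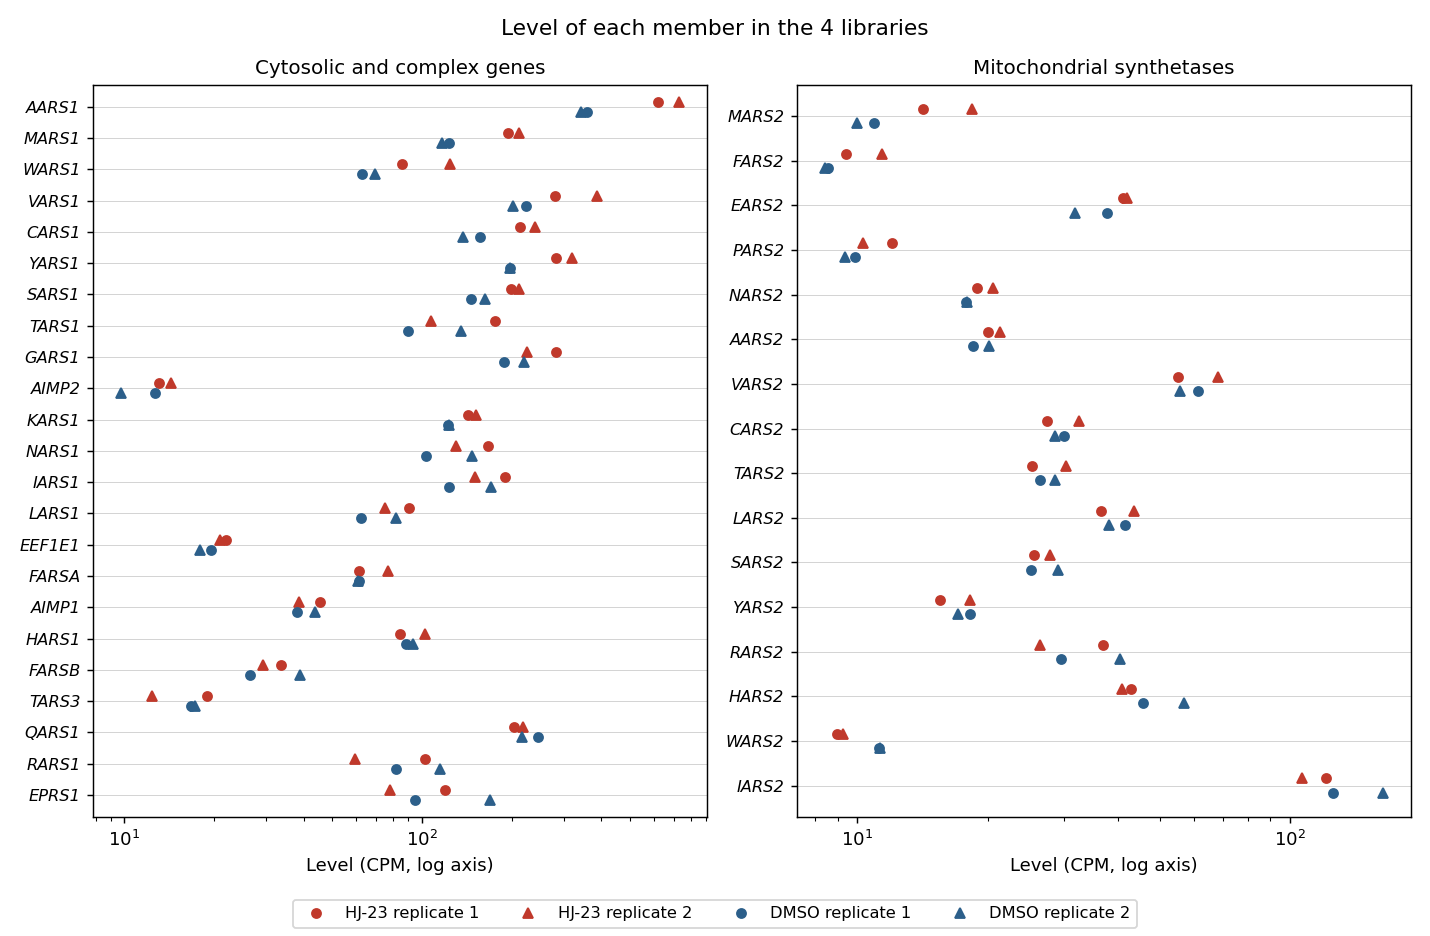
Level of each of the 39 members in CPM on a log axis, cytosolic and complex genes on the left and mitochondrial synthetases on the right, with 1 point per library (red HJ-23, blue DMSO; circles replicate 1, triangles replicate 2). Genes run from the highest fold change at the top to the lowest at the bottom; for AARS1 both HJ-23 points (620 and 728 CPM) lie to the right of both DMSO points (357 and 342 CPM), while for EPRS1 the points of the groups interleave.

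AARS1 (ENSG00000090861, chromosome 16), the alanyl-tRNA synthetase, had the largest fold change of the 39 members and the highest level per kilobase of transcript. It stood at 620 and 728 CPM in the HJ-23 libraries, against 357 and 342 CPM in the DMSO libraries. Both HJ-23 values were well above both DMSO values, with means of 674 ± 76.6 CPM in HJ-23 and 350 ± 10.1 CPM in DMSO (SD, n = 2 each). The log2 fold change was 0.95 with a standard error of 0.15, and edgeR's Benjamini-Hochberg adjusted p was 0.142. DESeq2 gave an adjusted p of 8.63e-05. With offsets that remove each library's trend with GC content and length, edgeR gave an adjusted p of 0.0489, which passes the threshold. Over all alternatives tried, the adjusted p of AARS1 ran from 8.63e-05 to 0.308. Per kilobase, AARS1 averaged 194 CPM in HJ-23 and 101 CPM in DMSO, and SARS1 came next in both groups with 109 CPM in HJ-23 and 82.1 CPM in DMSO.

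MARS1 (ENSG00000166986, chromosome 12), the methionyl-tRNA synthetase of the complex, charges both initiator and elongator methionine tRNAs in the cytoplasm. It had 194 and 211 CPM in HJ-23, against 123 and 117 CPM in DMSO, and the groups did not overlap. Its log2 fold change was 0.75 ± 0.13 (standard error), with an adjusted p of 0.206 in edgeR and 0.00305 in DESeq2, both after Benjamini-Hochberg adjustment, and values from 0.00305 to 0.607 over all alternatives. In the GENCODE 29 annotation the exons of MARS1 share 355 bases, or 5.05% of their length, with DDIT3 on the opposite strand. Whether counting used strand is not stated, and without strand reads in the shared stretch cannot be told apart. DDIT3 itself had 101 and 189 CPM in HJ-23, against 86.3 and 63.2 CPM in DMSO.

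Among the synthetases outside the complex, 5 more had groups that did not overlap and an unadjusted edgeR p below 0.05. WARS1, the tryptophanyl-tRNA synthetase that interferon is known to induce, had 85.5 and 124 CPM in HJ-23, against 62.8 and 69.4 CPM in DMSO. VARS1, which charges valine, had 279 and 386 CPM in HJ-23, against 224 and 202 CPM in DMSO. For both genes HJ-23 replicate 2 was far above replicate 1, so the size of the difference rested largely on that library. Without it the log2 fold change of WARS1 was 0.35 in place of 0.67, and that of VARS1 was 0.36 in place of 0.64. CARS1, the cysteinyl-tRNA synthetase, had 213 and 239 CPM in HJ-23, against 157 and 137 CPM in DMSO. YARS1, which charges tyrosine, had 281 and 318 CPM in HJ-23, against 198 and 198 CPM in DMSO. SARS1, which charges serine and also provides the seryl-tRNA from which selenocysteine is made, had 199 and 212 CPM in HJ-23, against 146 and 163 CPM in DMSO. In these 3 genes the libraries of a group lay close together, and log2 fold changes were 0.62 for CARS1, 0.60 for YARS1 and 0.41 for SARS1. Adjusted p-values in edgeR (Benjamini-Hochberg) were between 0.244 for YARS1 and 0.36 for SARS1 over these 5 genes, and YARS1 had 0.045 in DESeq2, within a range of 0.0159 to 0.947 over all alternatives.

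The enzymes with both a cytosolic and a mitochondrial form had smaller differences than the genes described so far. Both log2 fold changes were still above the cytosolic median of 0.25. GARS1, the glycyl-tRNA synthetase, had 281 and 226 CPM in HJ-23, against 189 and 220 CPM in DMSO. Both HJ-23 libraries were above both DMSO libraries by a small margin, and the log2 fold change was 0.31 ± 0.17 (standard error). KARS1, the lysyl-tRNA synthetase of the complex, had 143 and 152 CPM in HJ-23, against 122 and 123 CPM in DMSO. Its groups did not overlap, but the log2 fold change of 0.27 ± 0.13 had an adjusted p of 0.463 in edgeR (Benjamini-Hochberg). KARS1 shares 176 exonic bases, or 4.33% of its exonic length, with TERF2IP on the opposite strand, which had 3127 and 3128 counts in HJ-23, against 1305 and 1027 counts in DMSO.

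The scaffold genes of the complex were low in CPM among the cytosolic genes, and none had a log2 fold change above 0.29. Per kilobase in DMSO they averaged 9.18 CPM for AIMP2, 15.8 CPM for AIMP1 and 17.4 CPM for EEF1E1. LARS1, the lowest synthetase of the complex on that scale, averaged 15.1 CPM. AIMP2 had 13.1 and 14.3 CPM in HJ-23, against 12.7 and 9.74 CPM in DMSO, and it shares 28.9% of its exonic bases with EIF2AK1 on the opposite strand. EIF2AK1 had 4885 and 3973 counts in HJ-23, against 4837 and 5687 in DMSO. AIMP2 had 466 and 491 counts in HJ-23, against 396 and 285 in DMSO. Without strand, reads in the shared stretch cannot be told apart, so the AIMP2 values may include reads of EIF2AK1. EEF1E1 had 21.9 and 20.9 CPM in HJ-23, against 19.5 and 18 CPM in DMSO. AIMP1 had 45.3 and 38.5 CPM in HJ-23, against 38 and 43.6 CPM in DMSO, and its groups overlapped. Log2 fold changes were 0.29 for AIMP2, 0.19 for EEF1E1 and 0.04 for AIMP1, and the lowest adjusted p of the 3 in edgeR (Benjamini-Hochberg) was 0.596. Within the class, the 7 listed synthetases of the complex (EPRS1, IARS1, LARS1, MARS1, QARS1, RARS1 and KARS1) had a median log2 fold change of 0.20. Of these, 2 (28.6%) had groups that did not overlap, both higher, near the 24.8% of all genes tested that lay above. The 12 cytosolic synthetases outside the complex, leaving out TARS3, had a median of 0.37, and 8 (66.7%) had groups that did not overlap, all higher. Median transcript GC content was 43.6% for the 7 genes of the complex and 52.5% for the 12 outside it. With offsets for GC content and length, the median log2 fold changes were 0.33 for the 7 and 0.38 for the 12. The grouping by complex was made after the values were seen and was not tested.

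The members with the lowest cytosolic fold changes were mostly those in which the libraries of a group disagreed. EPRS1, a single protein that charges both glutamate and proline, had 119 and 78 CPM in HJ-23, against 94.4 and 169 CPM in DMSO. RARS1, the arginyl-tRNA synthetase of the complex, had 102 and 59.3 CPM in HJ-23, against 81.9 and 115 CPM in DMSO. TARS1, which charges threonine, had 176 and 107 CPM in HJ-23, against 89.9 and 135 CPM in DMSO, and so had the same pattern around a positive log2 fold change of 0.33. In all 3 genes replicate 2 was the lower HJ-23 library and the higher DMSO library, and the groups overlapped. Standard errors were 0.33 for EPRS1, 0.30 for RARS1 and 0.30 for TARS1, the first on a log2 fold change of -0.42 and the second on one of -0.29. Leaving out 1 library turned the sign of each: the log2 fold change was 0.04 for EPRS1 without DMSO replicate 2, 0.02 for RARS1 without HJ-23 replicate 2 and -0.09 for TARS1 without HJ-23 replicate 1.

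QARS1, the glutaminyl-tRNA synthetase, was the exception among the low members, since its libraries lay close together at 203 and 218 CPM in HJ-23, against 246 and 217 CPM in DMSO. The log2 fold change was -0.14 ± 0.14 (standard error), and the groups overlapped narrowly. TARS3, a threonyl-tRNA synthetase closely related to TARS1, had 18.9 and 12.4 CPM in HJ-23, against 16.7 and 17.3 CPM in DMSO. Per kilobase it averaged 4.34 CPM in HJ-23 and 4.71 CPM in DMSO, at the low end of the 39 members, while TARS1 averaged 56.2 CPM in HJ-23 and 44.7 CPM in DMSO. HARS1, which charges histidine, had 84.4 and 102 CPM in HJ-23, against 88.2 and 93.2 CPM in DMSO, and its groups overlapped. The other 5 cytosolic members, NARS1, IARS1, LARS1, FARSA and FARSB, had log2 fold changes between -0.06 for FARSB and 0.25 for NARS1, and among them only FARSA had groups that did not overlap.

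**Figure D2:**
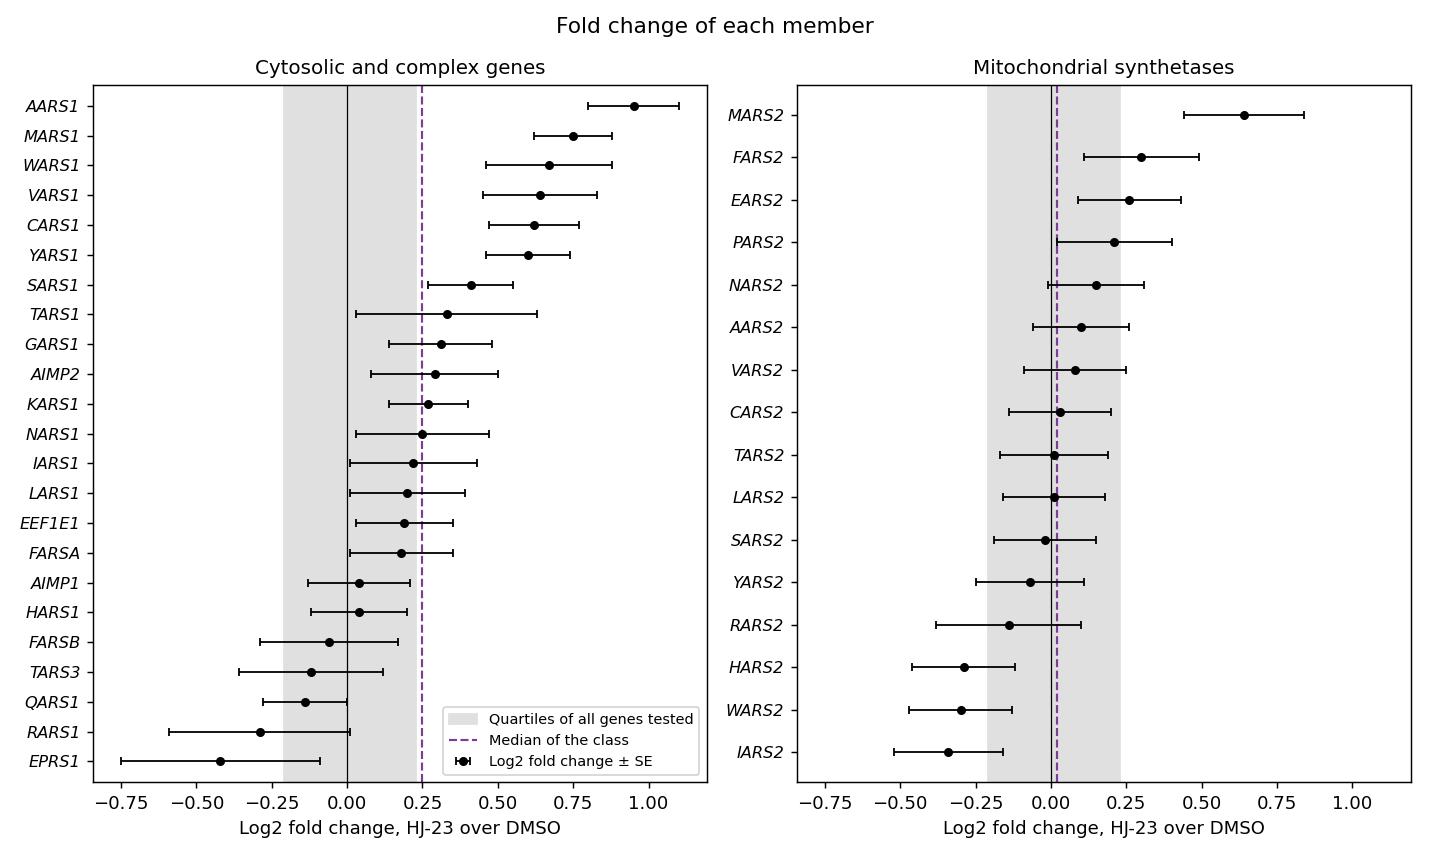
Log2 fold change of HJ-23 over DMSO for each member with its standard error, cytosolic and complex genes on the left and mitochondrial synthetases on the right; the grey band holds all genes tested between their quartiles (-0.21 to 0.23) and the dashed line is the median of the class, 0.25 and 0.02. The cytosolic genes reach from 0.95 for AARS1 to -0.42 for EPRS1, and the mitochondrial genes from 0.64 for MARS2 to -0.34 for IARS2.

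The promoters of these genes were read to show what the genes with high and low fold changes have at their start sites. The RefSeq promoter table (GRCh38.p14), which gives 250 bases before to 50 bases after each annotated start, held 33 of the 39 members; AARS2, LARS1, TARS3, VARS1, VARS2 and YARS1 were not matched. The motif searched was TGATGNAA on both strands, the core of the C/EBP-ATF response element, through which ATF4 is known to act. It was present in 7 of 19 cytosolic genes (36.8%) and 1 of 14 mitochondrial genes (7.14%), against 4.46% of the 27305 genes in the table. The cytosolic genes were AARS1, CARS1, GARS1, IARS1, MARS1, NARS1 and TARS1, and the mitochondrial gene was YARS2. The stretches shown run 5′ to 3′ on the gene's strand with the matched motif in capitals, for 3 genes whose groups did not overlap (AARS1, MARS1 and CARS1), for 2 whose groups overlapped (TARS1 and NARS1), and for YARS2.
AARS1: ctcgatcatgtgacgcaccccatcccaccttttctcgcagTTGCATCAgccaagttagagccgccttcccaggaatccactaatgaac
MARS1: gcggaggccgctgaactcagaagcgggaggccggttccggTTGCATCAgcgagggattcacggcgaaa
CARS1: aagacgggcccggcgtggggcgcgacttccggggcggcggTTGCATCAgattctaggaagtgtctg
TARS1: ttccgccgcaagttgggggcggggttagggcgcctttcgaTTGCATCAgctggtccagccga
NARS1: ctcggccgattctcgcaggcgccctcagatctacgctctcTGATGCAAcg
YARS2: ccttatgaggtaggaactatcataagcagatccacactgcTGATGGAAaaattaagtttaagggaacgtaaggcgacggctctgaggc

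These stretches are chr16:70289646-70289733 on the minus strand for AARS1, chr12:57488024-57488091 on the plus strand for MARS1 and chr11:3057400-3057465 on the minus strand for CARS1. The others are chr5:33440927-33440988 on the plus strand for TARS1, chr18:57621813-57621862 on the minus strand for NARS1 and chr12:32756047-32756134 on the minus strand for YARS2. In MARS1 and CARS1 the motif spans the start site, in TARS1 and NARS1 it begins 3 and 15 bases into the transcript, and in AARS1 and YARS2 it begins 187 and 197 bases before the start. Of the 7 cytosolic genes with the motif, AARS1, CARS1, GARS1 and MARS1 had groups that did not overlap and IARS1, NARS1 and TARS1 had groups that did. Among cytosolic genes in the table, the motif was thus in 4 of the 10 whose groups did not overlap and in 3 of the 9 whose groups did. A second motif, TGACGTCA, the cyclic AMP response element, was found in AIMP2 alone among the 19 cytosolic genes and in 0 of 14 mitochondrial genes, against 2.25% of the genes in the table. A match describes letters in a window and does not show that a factor binds there.

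The mitochondrial synthetases lay at lower levels and varied in both directions. MARS2, the mitochondrial methionyl-tRNA synthetase, had 14.2 and 18.4 CPM in HJ-23, against 10.9 and 10 CPM in DMSO, and both HJ-23 values were above both DMSO values. Its log2 fold change was 0.64 ± 0.20 (standard error), the only one of the 16 with an unadjusted edgeR p below 0.05, and the Benjamini-Hochberg adjusted p was 0.351. MARS1 and MARS2 were thus the pair for the same amino acid in which both genes had a log2 fold change above 0.6. FARS2, which charges phenylalanine as a single chain where the cytosolic enzyme needs both FARSA and FARSB, had 9.42 and 11.4 CPM in HJ-23, against 8.56 and 8.41 CPM in DMSO. EARS2, which puts glutamate on both the glutamate and the glutamine tRNA in mitochondria, had 41.1 and 42.1 CPM in HJ-23, against 37.7 and 31.8 CPM in DMSO. PARS2, which charges proline, had 12 and 10.3 CPM in HJ-23, against 9.88 and 9.36 CPM in DMSO. The groups of these 3 genes did not overlap, but log2 fold changes were only 0.30, 0.26 and 0.21 with standard errors of 0.17 to 0.19. NARS2 was the fifth member above, with a log2 fold change of 0.15.

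At the other end, IARS2, the most abundant mitochondrial member per kilobase, had 121 and 107 CPM in HJ-23, against 126 and 164 CPM in DMSO. WARS2, which charges tryptophan, had 8.97 and 9.27 CPM in HJ-23, against 11.2 and 11.3 CPM in DMSO. HARS2, the mitochondrial histidyl-tRNA synthetase, had 43 and 41 CPM in HJ-23, against 45.9 and 57 CPM in DMSO. In all 3 genes both HJ-23 libraries were below both DMSO libraries, with WARS2 the tightest within each group. Log2 fold changes were -0.34 for IARS2, -0.30 for WARS2 and -0.29 for HARS2, and the lowest adjusted p in edgeR (Benjamini-Hochberg) was 0.48, for IARS2. RARS2, which charges arginine, had 36.9 and 26.5 CPM in HJ-23, against 29.6 and 40.4 CPM in DMSO, and so the same crossed pattern as RARS1. The other 7 mitochondrial members, AARS2, VARS2, CARS2, TARS2, LARS2, SARS2 and YARS2, had overlapping groups and log2 fold changes between -0.07 and 0.10. For VARS2, 22% of the exonic bases are shared with GTF2H4 on the same strand, so its level also depends on how the authors assigned those reads.

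HARS1 and HARS2 lie head to head on chromosome 5, with annotated start sites 85 bases apart and 184 bases common to their promoter windows in the RefSeq table. Their exons share 437 bases on opposite strands, which is 5.56% of the exonic length of HARS1 and 11.7% of that of HARS2. The log2 ratio of HARS1 to HARS2 was 0.97 and 1.32 in HJ-23, against 0.94 and 0.71 in DMSO. Both HJ-23 ratios were above both DMSO ratios, the lower one by a narrow margin.

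Pairing each cytosolic gene with its mitochondrial counterpart for the same amino acid gave 17 pairs, with EPRS1 and FARS2 each used in 2. The cytosolic gene had the larger log2 fold change in 12 of 17 pairs. The log2 ratio of cytosolic to mitochondrial level was higher in both HJ-23 libraries than in both DMSO libraries in 8 pairs, lower in 2 and overlapping in 7. Of all single genes tested, 24.8% lay above and 21.2% below in this way. How often ratios of other gene pairs do so was not computed. Over the 17 pairs the median change of the ratio was 0.31 on the log2 scale, with no test. For WARS1 over WARS2 the log2 ratio was 3.25 and 3.74 in HJ-23, against 2.49 and 2.62 in DMSO, the largest mean change of the 17 pairs at 0.94. For AARS1 over AARS2 it was 4.95 and 5.09 in HJ-23, against 4.27 and 4.08 in DMSO. For YARS1 over YARS2 it was 4.19 and 4.13 in HJ-23, against 3.44 and 3.53 in DMSO. In these pairs the mitochondrial gene had log2 fold changes of -0.30 for WARS2, 0.10 for AARS2 and -0.07 for YARS2, so the ratio followed mainly the cytosolic gene, with WARS2 adding to it. The other 5 pairs with a higher ratio were those for cysteine, isoleucine, valine, serine and histidine. The ratio was lower in both HJ-23 libraries for FARSA over FARS2, with a mean change of -0.12, and for RARS1 over RARS2, with one of -0.17. In the arginine pair the ratio in HJ-23 replicate 1 and in DMSO replicate 1 both round to 1.47, so that pair is lower by a negligible margin. For MARS1 over MARS2 it was 3.78 and 3.51 in HJ-23, against 3.49 and 3.55 in DMSO, and the groups overlapped. Per kilobase the cytosolic gene was the more abundant in 16 of 17 pairs in DMSO, with ratios from 0.772 for isoleucine to 20 for alanine, and the ratio for alanine was 35.9 in HJ-23.

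Summed over the class, the cytosolic genes came to 3621.6 and 3708.8 CPM in HJ-23, against 2641.4 and 2889.2 CPM in DMSO. The mitochondrial genes came to 511.3 and 528.7 CPM in HJ-23, against 518.3 and 567.9 CPM in DMSO. The cytosolic sums did not overlap between groups and the mitochondrial sums did. The ratio of the sums was 7.08 and 7.01 in HJ-23, against 5.1 and 5.09 in DMSO, a log2 change of 0.47. Libraries of the same group had nearly the same ratio, although the members themselves differed between them. With 2 libraries a group, the smallest two-sided p an exact permutation test allows is 0.333, and no test of the sums is given because the members were chosen with results known. AARS1 weighed most: it made up 17.1% and 19.6% of the cytosolic sum in HJ-23, against 13.5% and 11.9% in DMSO, and 36% of the summed difference of 899.9 CPM. Without AARS1 the ratio was 5.87 and 5.64 in HJ-23, against 4.41 and 4.48 in DMSO, so the groups remained apart. The 6 genes with the largest differences, AARS1, VARS1, YARS1, MARS1, CARS1 and SARS1, made up 84.2% of the summed difference.

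**Figure D3:**
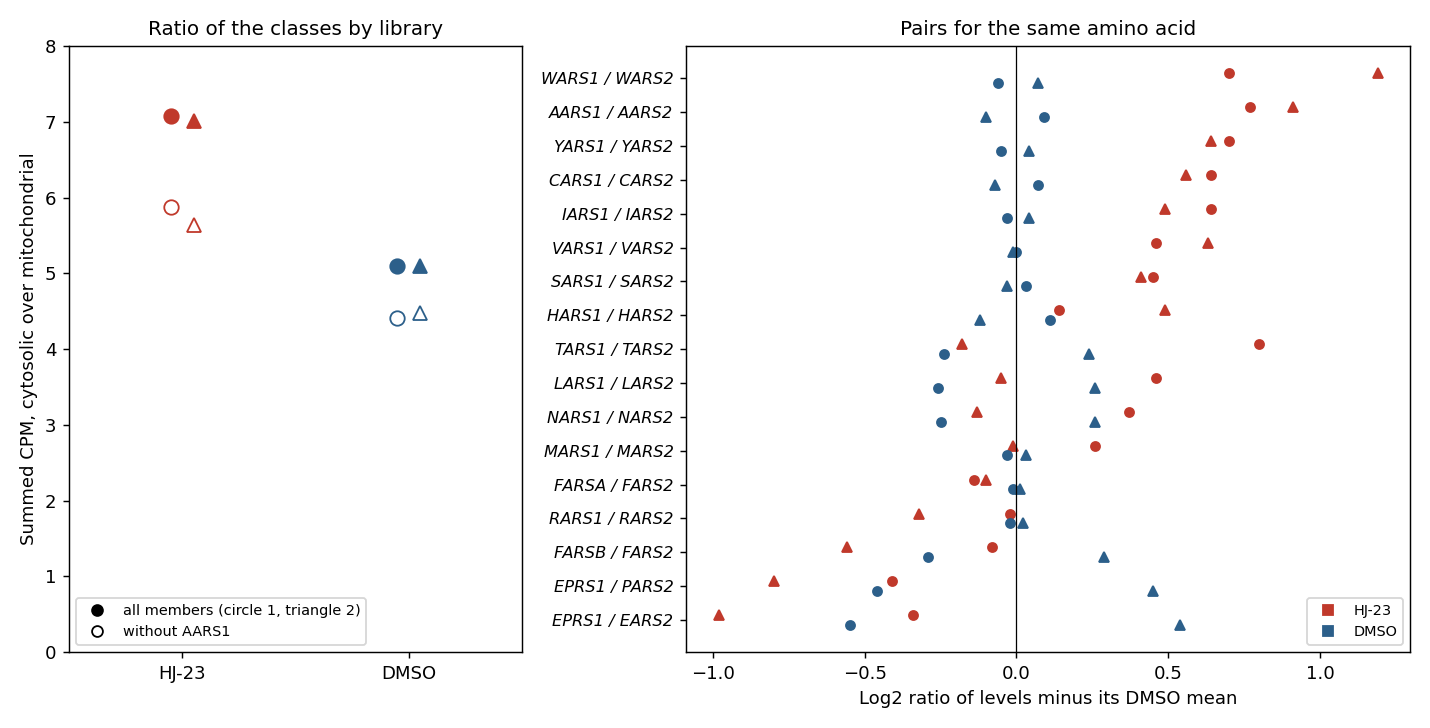
On the left, the ratio of the summed cytosolic to the summed mitochondrial level in each library (filled, all members; open, without AARS1); on the right, for each of 17 pairs, the log2 ratio of the cytosolic to the mitochondrial level minus its DMSO mean, red for HJ-23 and blue for DMSO, circles for replicate 1 and triangles for replicate 2. The ratio of sums is 7.08 and 7.01 in HJ-23 and 5.1 and 5.09 in DMSO, and the pairs run from WARS1 over WARS2 at the top, with the largest positive change, to EPRS1 over EARS2 at the bottom.

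The median over genes, which gives each member equal weight, depended on single libraries, while the log2 change of the ratio of sums stayed between 0.46 and 0.48 whichever library was left out. The cytosolic median exceeded the mitochondrial one by 0.23 on the log2 scale with all 4 libraries. It exceeded it by 0.41 without HJ-23 replicate 2 but by only 0.02 without HJ-23 replicate 1. Without HJ-23 replicate 1, 10 of 16 mitochondrial genes had HJ-23 above both DMSO libraries, and without HJ-23 replicate 2, 9 of 16 had it below. With the same libraries left out, 40.8% of all genes tested lay above and 38.2% below, since a lone HJ-23 library reaches this more easily. The replicate differences of the members ran against each other: the difference of replicate 2 from replicate 1 had opposite signs in HJ-23 and DMSO in 18 of 23 cytosolic and 10 of 16 mitochondrial genes. Across the 39 members the correlation of these differences was -0.719, compared with -0.259 across the 12898 genes. Those genes had a mean of at least 1 CPM and were not matched to the members in level.

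GC content varied with the pattern between groups, and this was not particular to the members. Across the 12898 genes, the log2 fold change of HJ-23 over DMSO had a Spearman correlation with GC content of 0.412. Among the 39 members it was 0.315, with 0.493 in the cytosolic class and 0.412 in the mitochondrial class. The 12 cytosolic genes with both HJ-23 libraries above had a median transcript GC content of 52.5% (range 36.9 to 62.6%), and the 11 overlapping ones had 43.6% (range 36.3 to 55.2%). The 3 mitochondrial genes with both HJ-23 libraries below had a median of 43.8%, the 5 above had 54% and the 8 overlapping ones 55.5%. With offsets for GC content and length, 15 cytosolic genes lay above and 1 below, and 3 mitochondrial genes lay above and 4 below, against 26.8% of all genes above and 24.6% below under the same offsets. The median difference between the classes was then 0.40, and the log2 change of the ratio of sums was 0.46, against 0.23 and 0.47 without the offsets.

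**Figure D4:**
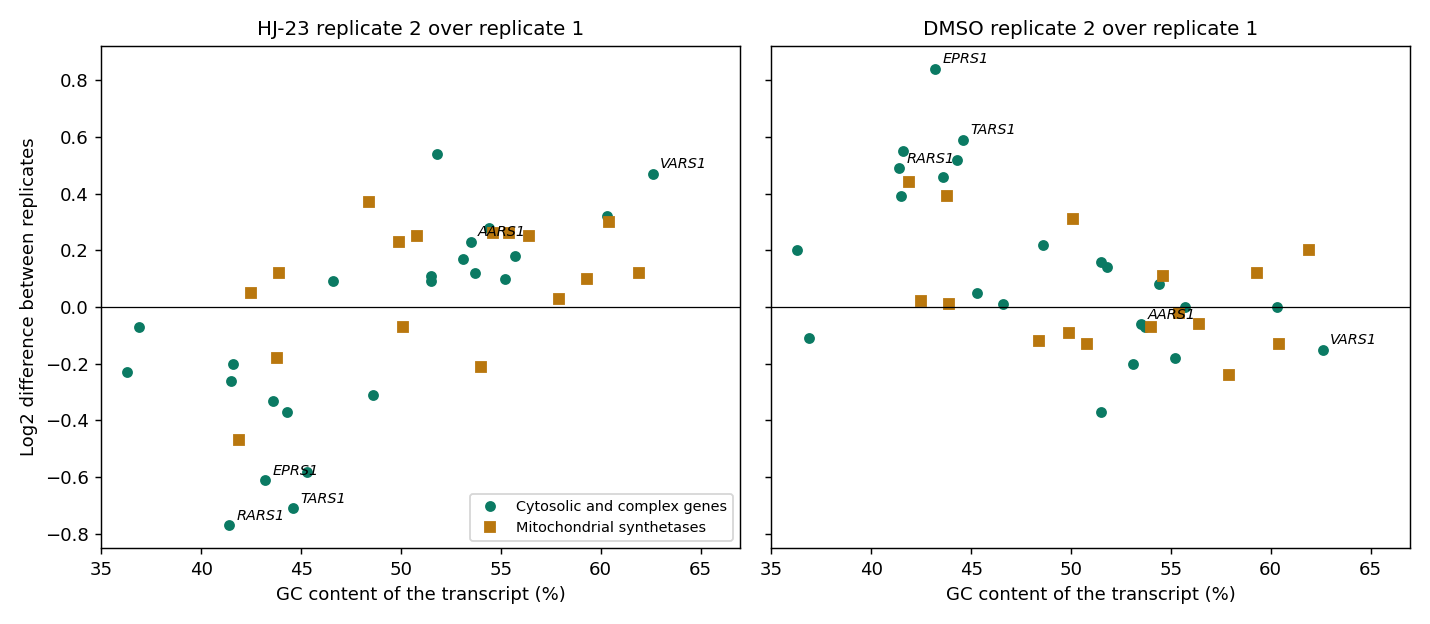
Log2 difference of replicate 2 from replicate 1 for each of the 39 members against the GC content of its transcript in percent, HJ-23 on the left and DMSO on the right (circles, cytosolic and complex genes; squares, mitochondrial synthetases). The HJ-23 differences rank upwards with GC content (Spearman 0.689) and the DMSO differences downwards (-0.543).

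Neighbouring steps of translation were described from 4 further gene lists, chosen with earlier results of these data known. The cytosolic elongation factors had a median log2 fold change of -0.04 over 6 genes, with 1 above, 1 below, 0 called by edgeR or DESeq2 and 1 lower at an unadjusted edgeR p below 0.05. Over all genes tested, 24.8% lay above, 21.2% lay below and 5.25% were lower at that p, so the counts above and below, like those of the mitochondrial factors, are near or under these shares. EEF1A1, which carries charged tRNA to the ribosome, had 6680 and 5770 CPM in HJ-23, against 7720 and 11700 CPM in DMSO. EEF2, which moves the ribosome along, had 6560 and 8100 CPM in HJ-23, against 6270 and 5810 CPM in DMSO. The DMSO libraries differed widely in EEF1A1, a gene with many processed copies in the genome, and the cause of that difference was not tested. The mitochondrial factors other than synthetases had a median of -0.02 over 13 genes, with 3 above, 2 below, 0 called by edgeR or DESeq2 and 0 with an unadjusted edgeR p below 0.05. Among them QRSL1, a subunit of the amidase that makes mitochondrial glutaminyl-tRNA from the product of EARS2, had 23 and 20.1 CPM in HJ-23, against 15.8 and 16.6 CPM in DMSO. TUFM, the mitochondrial counterpart of EEF1A1, had 401 and 517 CPM in HJ-23, against 358 and 347 CPM in DMSO.

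Genes for tRNA maturation, proofreading and export had a median log2 fold change of 0.25 over 23 genes, with 11 above and 1 below. edgeR and DESeq2 called 0 of them, and 4 were higher at an unadjusted edgeR p below 0.05. Over all genes tested, 24.8% lay above, 21.2% below and 6.77% were higher at that p. XPOT, the exporter that carries mature tRNA out of the nucleus, had 223 and 187 CPM in HJ-23, against 122 and 149 CPM in DMSO, a log2 fold change of 0.59 with an edgeR adjusted p of 0.31 (Benjamini-Hochberg). TSEN15, a subunit of the tRNA splicing endonuclease, had 14.4 and 11.1 CPM in HJ-23, against 9.3 and 8.3 CPM in DMSO.

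The genes of uncharged tRNA sensing and the ATF4 response had a median log2 fold change of 1.01 over 22 genes tested, with 18 above, against 24.8% of all genes tested, and 0 below, against 21.2%. VLDLR was too low to be tested. edgeR called 1 of them, against 0.0569% of all genes called higher, and DESeq2 called 12, against 1.19%, all higher. EIF2AK4, which encodes the sensor GCN2, was the 1 gene of the list with a negative log2 fold change, at -0.25. It had 67.8 and 57.9 CPM in HJ-23, against 61.2 and 88.6 CPM in DMSO, and its groups overlapped. GCN1 and IMPACT, listed with it for sensing, had log2 fold changes of 0.22 and 0.28, well under the median of the list. The groups of GCN1 overlapped and those of IMPACT did not. ATF5, a transcription factor of the ATF4 family, rose in HJ-23 cells to 16.6 and 19 CPM, against 3.25 and 3.04 CPM in DMSO, with a log2 fold change of 2.50 ± 0.20 (standard error) and an edgeR adjusted p of 0.0304 (Benjamini-Hochberg). ASNS, which makes asparagine and so supplies the substrate of NARS1, had 443 and 447 CPM in HJ-23, against 190 and 186 CPM in DMSO, with an edgeR adjusted p of 0.065 (Benjamini-Hochberg).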

How the data were processed

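Per the submitters' processing notes, FastQC, Trimmomatic, HISAT2, bedtools and RSEM were used. Their roles and versions, the genome build, the strand setting and the counting step are not stated in the labels or tables. The authors deposited whole-number read counts per Ensembl gene, 1 table per library, with no normalization. The tables carry the letter C for samples titled HJ-23 and D for those titled DMSO, and each was assigned by its recorded sample. A gene name table matched 20148 IDs to symbols, GENCODE 29 matched 76 more, and 39 were unmatched.

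The members and gene lists were chosen with earlier results of these data known. The test was edgeR's quasi-likelihood F-test (version 4.0.16, R 4.3.3) on the counts (TMM factors between 0.983 and 1.03, filterByExpr, group as the only term, Benjamini-Hochberg adjustment over 14062 genes). The estimated biological coefficient of variation was 19.6%. CPM was computed here from the deposited counts with TMM library sizes, and per kilobase it was divided by the length of the GENCODE 29 transcript with the longest coding sequence. DESeq2 1.42.0, its size factors, other filters, each library left out, the replicate number as a block, and offsets for GC content and length were alternatives. The script for these tests was first tested on simulated data. The libraries of a group differed by more than counting noise, with chi-square over degrees of freedom of 73.6 for HJ-23 and 37.6 for DMSO, so none was counted as a duplicate. The 39 members had between 246 and 25063 counts in a library.

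Genes named with values were the 8 highest and 4 lowest cytosolic and 4 highest and 4 lowest mitochondrial log2 fold changes, where the mean level reached 5 CPM. KARS1, GARS1, AIMP1, AIMP2, EEF1E1, HARS1, HARS2 and TARS3 were always named, with 2 genes of each other list by smallest p. DDIT3, TERF2IP and EIF2AK1 were added because their exons overlap MARS1, KARS1 and AIMP2, and EIF2AK4 because it encodes GCN2. GCN1 and IMPACT were added as the genes listed with EIF2AK4 for sensing. Promoter sequences were read from the RefSeq table of GRCh38.p14.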

Additional observations from a re-analysis of the deposited data

How the results depend on the processing

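With 2 libraries a group, counts of genes called across the table depended on the fit: 8 higher and 4 lower with all libraries, 18 and 13 with no filter, 22 and 15 with GC content and length offsets, 161 and 150 with DESeq2, and 0 to 112 and 0 to 161 with 1 library left out, where the lone library is assumed to vary like the other group. Cytosolic members called numbered 0 in edgeR, 1 (AARS1) with the offsets and 3 in DESeq2. With the offsets the cytosolic members below numbered 1, the mitochondrial members above 3, the mitochondrial median was -0.08, the class difference 0.40 and the tRNA maturation median 0.17. With 1 library left out, the cytosolic members above numbered 12 to 17 and those below 1 to 4, and the mitochondrial members above 5 to 10 and those below 4 to 9. Without HJ-23 replicate 1, 13 cytosolic members lay above, against 40.8% of all genes tested. Without HJ-23 replicate 2, 3 cytosolic members lay below, against 38.2% of all genes tested. No share of all genes is given here for the other counts with 1 library left out, so those counts are not read as results. Medians then ran from 0.14 to 0.38 for the cytosolic class, from -0.11 to 0.11 for the mitochondrial class, from 0.02 to 0.41 for their difference, from -0.27 to 0.10 for cytosolic elongation, from 0.14 to 0.25 for tRNA maturation and from 0.66 to 1.21 for the ATF4 list. Signs turned with 1 library left out for 15 of 39 members, 8 cytosolic and 7 mitochondrial, and with the offsets for 7; none of these had a log2 fold change beyond 0.42 in size. Among the members named with values, those that turned with 1 library left out were TARS1 (-0.09 to 0.63), EPRS1 (-0.78 to 0.04), RARS1 (-0.75 to 0.02), TARS3 (-0.47 to 0.13), AIMP1 (-0.10 to 0.13), HARS1 (-0.13 to 0.16) and RARS2 (-0.42 to 0.07), and HARS1, at -0.07, was the one that turned with the offsets. The cause of these shifts was not tested. DESeq2's size factors and the filter of 10 counts in 2 libraries turned no sign among the 26 members named with values, and moved no count or median of the classes beyond the spread between libraries.

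The replicate numbers in the labels are only numbers, since nothing ties equal numbers to a shared culture or day. With the replicate number as a block, 136 genes were called higher and 158 lower, 1 of them a cytosolic member (AARS1). With the block and the offsets together, 0 were called higher and 0 lower, the mitochondrial median was -0.08, the class difference 0.40, the tRNA maturation median 0.17 and HARS1 -0.07. With the numbers crossed, a fit chosen after seeing the data, 454 genes were called higher and 512 lower, 5 of them cytosolic members and 1 mitochondrial, all higher.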
